A study of Danio rerio with 6 samples.

Results

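Single deletions of 3 to 6 bp were examined among the scars of 6 adult zebrafish. A scar is the change left in a GFP copy after cutting by Cas9. A scar belonged to this class when its alignment to GFP held exactly 1 deletion of 3 to 6 bp and no insertion, and when the deleted bases overlapped positions 520 to 570 of the reference sequence, counted from 1. The members were selected on their read counts, since a scar was kept with at least 10 reads in at least 1 library. There were 72 such deletions among 4273 scars of all kinds that passed the same limit.

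Scarred H2A-GFP was measured by ScarTrace in genomic DNA of small parts of many organs, and each deposited barcode with at least 1000 reads was treated as 1 library. The fish R1, R2 and R3 had received Cas9 RNA and an sgRNA against GFP as zygotes, and P1, P2 and P3 had received Cas9 protein and the same kind of sgRNA. All 6 carried the GFP transgene and were about 1 year old, and no uninjected fish was among the samples. R1, R2 and R3 gave 31, 13 and 14 libraries, and P1, P2 and P3 gave 26, 23 and 23 libraries. The fish is the replicate here. Libraries of a fish share its early cells, and which body structure stands behind a barcode was not used, so that several libraries can come from the same structure.

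Cas9 cuts both strands of the DNA, and error-prone end joining often leaves a small deletion or insertion at the break. A deletion whose length is a multiple of 3 keeps the reading frame, whereas other lengths shift it. A scar made in an embryonic cell is inherited by all its descendants, which is why scars can be used to follow clones. The same small deletion can also arise independently in different cells and fish.

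Depth was between 2802 and 3198706 reads per library. The least deep library, barcode 16 of P1, held 629 reads of the deletions, and the next lowest count was 682 reads in barcode 13 of R2. Absence of a deletion from a library sets an upper limit of between 0.000137% and 0.163% of its scarred reads. These limits cover counting error only, since PCR reads without molecular identifiers are not independent molecules. The GFP reference and the guide sequence were not used here, so deletions are named by their first and last deleted base. In a repeated stretch the aligner can place the same deletion at more than 1 position, and its effect on these positions was not tested.

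The 72 deletions were spread over the lengths, with 16 of 3 bp, 16 of 4 bp, 22 of 5 bp and 18 of 6 bp. Of these, 34 (47.2%) kept the reading frame and 38 shifted it. Their first deleted bases lay between 517 and 554, with 34 different first bases, and 29 deletions began between 536 and 548. Together the deletions covered every base from 517 to 556 and none from 557 to 570, whereas their reads were concentrated in few of them. The 4 most abundant deletions held 84.4% of all reads of the class, and 30 deletions stayed under 0.1% of the scarred reads in every library. By contrast, 28 deletions reached at least 1% of the scarred reads in some library.

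In all, 110 different deletions fitted the length and position limits, and the 38 that did not reach 10 reads in any library held 0.011% of the reads. Just inside the limit were 519 to 522 in P3, 529 to 533 in R1 and 531 to 535 in R1, each with at most 10 reads in a library. Just outside were 5 deletions with at most 8 reads, among them 520 to 525 in R1 and 550 to 552 in P1.

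The deletions held a mean of 27.6% ± 7.68 of the scarred reads in Cas9 RNA fish, against 24.6% ± 6.98 in Cas9 protein fish (SD, n = 3 fish each). The share averaged 29.6% ± 6.27 over the libraries of R1, with a lowest value of 13.8%, a median of 29% and a highest of 43.1%. It averaged 19.1% ± 7.04 in R2 (10.7%, 17.4% and 33.9%) and 34% ± 8.38 in R3 (23.4%, 34.1% and 55.1%). The ranges of the Cas9 RNA fish overlapped, and R2 had the lowest mean of these.

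In the Cas9 protein fish the share averaged 31.9% ± 6.77 in P1 (lowest 17.9%, median 32.9% and highest 50.4%). It averaged 18% ± 6.55 in P2 (6.07%, 17.4% and 33.2%) and 23.9% ± 8.14 in P3 (7.01%, 23.7% and 41.8%). No library lacked the class. The groups overlapped, and the difference of 2.95 percentage points was smaller than the SD over fish of either group (two-sided exact permutation test, p = 0.70). Without R3 or without P2 the difference turned slightly negative.

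For the whole class, length classes on either side give a scale. Single deletions of 3 to 6 bp held between 18% and 34% of the scarred reads by fish, against between 2.12% and 9.28% for deletions of 1 to 2 bp and between 5.16% and 26.9% for deletions of 7 to 12 bp in the same window. In R2 the deletions of 7 to 12 bp held more than those of 3 to 6 bp, with 20.2% against 19.1%. In every other fish those of 3 to 6 bp held more. These shares are given side by side and their difference was not tested.

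A 6 bp deletion of bases 542 to 547 was the most abundant member by mean share in every fish. It keeps the reading frame and was present with at least 10 reads in all 130 libraries. Its share of the scarred reads averaged 16.3%, 9.53% and 19.3% in R1, R2 and R3, against 19.9%, 9.49% and 12.7% in P1, P2 and P3. The values overlapped between the injections, with the lowest shares in R2 and P2.

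The deletion of 542 to 547 also varied from library to library within a fish. Its lowest, median and highest shares were 6.10%, 15.7% and 32.3% in R1, 5.05%, 8.73% and 19.3% in R2, and 12.9%, 19.2% and 33.8% in R3. In Cas9 protein fish they were 10.5%, 17.9% and 40.7% in P1, 0.380%, 9.38% and 20.04% in P2, and 1.74%, 11.9% and 26% in P3. The lowest single values thus came from P2 and P3. It was the largest deletion of the class in 108 of the 130 libraries, namely in 29 of 31, 9 of 13 and 14 of 14 libraries of R1, R2 and R3, and in 23 of 26, 15 of 23 and 18 of 23 libraries of P1, P2 and P3.

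The other 22 libraries were led by 7 different deletions. The deletions 540 to 545 and 542 to 544 each led 6 libraries, 545 to 547 led 5 and 539 to 544 led 2. The remaining 3 libraries were led by 534 to 536 in P1, 542 to 546 in P2 and 519 to 523 in P3. All but 519 to 523 and 534 to 536 overlap the deletion of 542 to 547.

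The second 6 bp deletion, 540 to 545, also keeps the frame and was found in all 130 libraries. Its mean share was 1.97%, 1.36% and 2.86% of the scarred reads in R1, R2 and R3, and 6.25%, 3.998% and 0.536% in P1, P2 and P3. P1 and P2 lay above all Cas9 RNA fish and P3 below them. In P2 the median library held 0.870% and the highest 23.1%, so that few libraries set its mean, and with reads pooled over libraries it was more abundant in P2 (8.38%) than 542 to 547 (6.83%). Without barcode 14 the mean of P3 was 0.341%.

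Another 6 bp deletion, 539 to 544, was found in 127 libraries. It averaged 1.19%, 0.862% and 0.203% in R1, R2 and R3, against 0.160%, 0.0790% and 0.953% in P1, P2 and P3. In R2 its mean rested on a single library, barcode 12 with 6.57%, and was 0.386% without it. The mean of P1 was 0.0977% without barcode 22. The 6 bp deletion 537 to 542 stood out in R1, where it reached at least 0.911% in all 31 libraries, with a median of 2.35% and a highest value of 9.05%. Its mean of 2.77% in R1 compares with 0.219% in R2, 0.206% in R3 and at most 0.181% in a Cas9 protein fish. Without barcode 2 the mean of R2 was 0.0835%, and without barcode 13 that of R3 was 0.0452%.

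Among the 3 bp deletions, 542 to 544 removes the first 3 bases of 542 to 547, and 545 to 547 removes its last 3 bases. Both keep the reading frame. The deletion of 542 to 544 averaged 3.15%, 3.78% and 4.19% of the scarred reads in R1, R2 and R3, against 0.575%, 1.47% and 0.460% in P1, P2 and P3. All Cas9 RNA fish lay above all Cas9 protein fish.

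By library, 542 to 544 had a lowest, median and highest share of 0.817%, 2.37% and 9.62% in R1, 0.112%, 2.88% and 10.5% in R2, and 1.17%, 3.77% and 14.7% in R3. In the Cas9 protein fish it had 0.0235%, 0.158% and 6.28% in P1, 0.0322%, 0.0733% and 15.2% in P2, and 0.0174%, 0.0495% and 3.07% in P3. The medians were thus lower in every Cas9 protein fish, whereas single libraries of all 3 Cas9 protein fish reached the range of the Cas9 RNA fish. Without the highest library of each fish the means were 2.94%, 3.22% and 3.39% in R1, R2 and R3. They were then 0.347% in P1 (without barcode 8), 0.846% in P2 (without barcode 3) and 0.342% in P3.

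In edgeR's quasi-likelihood test on reads summed per fish, 542 to 544 was 2.18 higher on the log2 scale in Cas9 RNA fish, with a Benjamini-Hochberg adjusted p = 0.604 over all scars tested. The difference therefore did not pass, although the fish did not overlap in mean share.

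The deletion of 545 to 547 was found in 112 libraries and averaged 1.59%, 0.120% and 0.121% in R1, R2 and R3, against 0.374%, 0.00812% and 3.81% in P1, P2 and P3. It was high in some libraries of R1 and P3. In R1 the median was 0.254% and the highest library 18.2%, and in P3 the median was 0.466% and the highest library, barcode 13, 29%. Without barcode 19 the mean of R1 was 1.04%, and without barcode 4 that of P2 was 0.00482%.

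Other 3 bp deletions were abundant in 1 fish each. The deletion of 531 to 533 lies before base 536, away from the bases most often deleted, and averaged 4.32% in R3, where all 14 libraries carried it (lowest 0.542%, median 4.46% and highest 8.77%). Its mean was at most 0.00824% in each of the other 5 fish, with the highest in R1, which fell to 0.00252% without barcode 19. In edgeR's quasi-likelihood test it had the smallest Benjamini-Hochberg adjusted p of the class, adjusted p = 0.293, with R3 alone high. The deletion of 534 to 536 reached 19.3% in barcode 12 of P1, whereas the median library of P1 held 0.0679%.

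The 5 bp deletions shift the frame, and the most abundant of these, 542 to 546, lacks only the last base of 542 to 547. It averaged 0.0261%, 0.00153% and 0.743% in R1, R2 and R3, against 2.22%, 2.11% and 0.00104% in P1, P2 and P3. It was thus high in P1 and P2 and nearly absent from P3. In P1 the lowest, median and highest libraries held 0.122%, 1.89% and 5.91%, whereas in P2 the median was 0.0655% and the highest 15.2%. Without its highest library the mean was 0.0108% in R1 (barcode 8), 0.347% in R3 (barcode 2) and 0.000398% in P3 (barcode 15).

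The 5 bp deletion 519 to 523 lies farthest from base 542 among the abundant ones. It was found in all 23 libraries of P3, with a lowest share of 0.0698%, a median of 0.829% and a highest of 16.3% in barcode 9, and its mean was 2.44%. In the other 5 fish its mean was at most 0.00106%. The next 5 bp deletion by mean share, 539 to 543, averaged 0.291%, 0.0474% and 0.0755% in R1, R2 and R3, against 0.0225%, 0.526% and 0.00393% in P1, P2 and P3. Single libraries set much of these means, though less so in P2, where the mean was 0.394% without barcode 14. Without the highest library they were 0.168%, 0.0235% and 0.0331% in R1 (barcode 1), R2 (barcode 2) and R3 (barcode 11). They were then 0.0145% in P1 (barcode 9) and 0.00141% in P3 (barcode 15).

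The 4 bp deletions also shift the frame and were the least abundant length. The leading one, 538 to 541, averaged 2.06% in P3, where all 23 libraries carried it and barcode 9 reached 13.4%. It averaged at most 0.0591% elsewhere, in P1, where the mean without barcode 8 was 0.0310%. The deletion of 542 to 545 averaged 0.492% in P3 (0.210% without its highest library, barcode 14) and at most 0.0459% elsewhere. The deletion of 539 to 542 averaged 0.1003%, 0.347% and 0.0691% in R1, R2 and R3, against 0.308%, 0.0000865% and 0.00571% in P1, P2 and P3. Without the highest library these means were 0.0183%, 0.218% and 0.0331% in R1 (barcode 11), R2 (barcode 3) and R3 (barcode 11), against 0.107% in P1 (barcode 5).

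In-frame deletions held most reads of the class. The share of reads with a deletion of 3 or 6 bp averaged 94.5% ± 6.46, 88.1% ± 12 and 94.8% ± 5.43 over the libraries of R1, R2 and R3. In P1, P2 and P3 it was 90.9% ± 4.99, 87.6% ± 15.6 and 79.5% ± 21.9 (SD over libraries). It was over 90% in 81 of the 130 libraries and under 50% in 3. The lowest library was barcode 9 of P3 with 7.56%, which was led by 519 to 523, and the highest reached 99.8%.

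Counted as distinct deletions rather than as reads, in-frame members were no such majority. They made up 53.6%, 51.4% and 51.2% of the members found in R1, R2 and R3, and 54.2%, 60.6% and 45% of those found in P1, P2 and P3. Without the deletion of 542 to 547 the in-frame share of reads was 88.1%, 72.2% and 87.4% in R1, R2 and R3, against 73.1%, 64.1% and 50.2% in P1, P2 and P3. Of the 4 lengths in the class, 2 keep the frame.

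The in-frame share of reads was higher for deletions of 3 to 6 bp than for those of 7 to 12 bp in 6 of 6 fish. The 7 to 12 bp deletions had 61.6%, 20.1% and 35.2% in-frame reads in R1, R2 and R3, and 28.4%, 26.2% and 33.4% in P1, P2 and P3. The paired difference was 55.1 ± 13.1 percentage points (SD, n = 6 fish; two-sided exact sign-flip permutation test, p = 0.03125, the smallest the design allows, and adjusted p = 0.0469 over 3 comparisons). Only 2 of the 6 lengths between 7 and 12 bp keep the frame, against 2 of 4 here, and 26% to 35.8% of the distinct 7 to 12 bp deletions in a fish did so. The test compared the difference with 0, although the classes differ in their part of in-frame lengths. Its p cannot tell whether in-frame reads exceed what these lengths give, and no conclusion is drawn from it. The reads of 542 to 547 also enter the difference. Without them it stayed positive in all 6 fish, with 26.6, 52.1 and 52.2 points in R1, R2 and R3, and 44.8, 37.9 and 16.8 points in P1, P2 and P3. The reads of 7 to 12 bp were left whole in this run. These values are again set against 0, so the same limit holds and no conclusion is drawn from their sign.

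Between the injections, the in-frame share of reads averaged 92.5% ± 3.80 in Cas9 RNA fish, against 86% ± 5.86 in Cas9 protein fish (SD, n = 3 each). The difference was 6.45 percentage points, the fish of the groups overlapped, and the test did not pass (two-sided exact permutation test, p = 0.20, and adjusted p = 0.50 over 10 comparisons). With 3 fish against 3 the smallest p of this test is 0.10, so no comparison between injections could reach 0.05.

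By length, deletions of 6 bp held the largest part of the class in every fish, with 76%, 66.2% and 69% of its reads in R1, R2 and R3, against 83.5%, 76.7% and 62.9% in P1, P2 and P3. Deletions of 3 bp held 18.5%, 21.9% and 25.9% in R1, R2 and R3, against 7.40%, 10.9% and 16.6% in P1, P2 and P3. The 3 bp shares did not overlap between the injections, and their means were 22.1% ± 3.69 in Cas9 RNA fish, against 11.6% ± 4.64 in Cas9 protein fish (two-sided exact permutation test, p = 0.10, adjusted p = 0.50).

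The 3 bp difference between the group means fell from 10.4 to 2.39 points without 542 to 544, in a run chosen after seeing the data. With 3 fish per injection, an overlap cannot show that no difference remained. Without that deletion the 3 bp share was 8.50%, 4.88% and 16.2% in R1, R2 and R3, against 5.63%, 1.45% and 15.4% in P1, P2 and P3, and the groups overlapped (exact permutation test, p = 0.60). With reads pooled over the libraries of a fish they overlapped too, with 13.3%, 30.6% and 26.4% in Cas9 RNA fish and 4.12%, 7.44% and 24.7% in Cas9 protein fish.

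The frame-shifting lengths held less. Deletions of 5 bp held 5.19% ± 2.85 of the reads of the class in Cas9 RNA fish, against 9.96% ± 2.58 in Cas9 protein fish (exact permutation test, p = 0.20). With pooled reads the 5 bp shares were 3.23% ± 1.38 and 7.56% ± 0.381 in the Cas9 RNA and the Cas9 protein fish, without overlap (exact permutation test, p = 0.10). Deletions of 4 bp held 2.35% ± 0.970 in Cas9 RNA fish, against 4.03% ± 5.10 in Cas9 protein fish (exact permutation test, p = 0.80), with P3 alone at 9.83%. Without P3 the 4 bp difference changed sign.

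The largest deletion of a library held 56.7% ± 0.299 of the reads of the class in Cas9 RNA fish, against 66% ± 6.13 in Cas9 protein fish. The 6 fish did not overlap, with 56.6%, 56.5% and 57.1% in R1, R2 and R3, against 63.8%, 73% and 61.3% in P1, P2 and P3 (two-sided exact permutation test, p = 0.10, adjusted p = 0.50). The direction was the opposite with reads pooled per fish, where the shares were 62.3%, 53.5% and 57.7% in R1, R2 and R3 and 64.6%, 46.5% and 52.6% in P1, P2 and P3. The largest deletion of the pooled reads is the same for all libraries of a fish, whereas it could differ between single libraries. Pooling also gives deeper libraries more weight. The part of either in the change of direction was not tested.

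Deleted bases were concentrated between 542 and 547. Each of these 6 bases was missing in at least 50% of the reads of the class in every fish. Base 542 was the most often deleted in R1, R2 and R3 (87.6%, 93% and 81.5%) and in P1 and P2 (94.3% and 98.4%), whereas in P3 it was base 545 (72.4%). Deletions that begin at 542 held 65.9%, 71.8% and 70.8% of the reads in R1, R2 and R3, against 71.2%, 72.6% and 57.9% in P1, P2 and P3.

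Deletions beginning at base 540 held 6.73%, 7.74% and 9.01% in R1, R2 and R3, against 21%, 22.4% and 2.12% in P1, P2 and P3. Deletions that end before base 536 were many in kind, 29 of the 72, but few in reads. They held 14% in R3 and 9.62% in P3, mainly through 531 to 533 in R3 and 519 to 523 in P3, and at most 0.837% in the other fish. The read-weighted mean position was 542.8 ± 0.636 in Cas9 RNA fish, against 542.9 ± 1.07 in Cas9 protein fish (exact permutation test, p = 0.70).

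Most of these deletions were found in more than 1 fish at the limit of 10 reads. R1, R2 and R3 carried 56, 37 and 43 of them, and P1, P2 and P3 carried 59, 33 and 40, each with at least 10 reads in some library. In all, 19 were found in all 6 fish and 13 in only 1, which is 26.4% and 18.1% of the class. These parts were 23.8% and 12.7% for deletions of 1 to 2 bp, and 23.7% and 19.6% for 7 to 12 bp. The 19 held 95.5%, 89.5% and 82.3% of the reads of the class in R1, R2 and R3, and 88.2%, 90.6% and 89.3% in P1, P2 and P3. Scars of 7 to 12 bp found in all 6 fish held 82.9% to 97.9% of the reads of their class by fish. For 1 to 2 bp this was 20.8% to 94.9%. A deletion enters this group only with 10 reads in every fish, which favours abundant ones, so nothing is read from these shares. Of the 72, 57 were found after both kinds of injection, 6 only in Cas9 RNA fish and 9 only in Cas9 protein fish. The Cas9 RNA fish gave 58 libraries and the Cas9 protein fish 72. The matching parts of all scars are not given, so nothing is read from this split. These counts rest on 10 reads in a library of any depth. With presence set at 0.1% of the reads of a library, R1, R2 and R3 carried 27, 15 and 23 deletions. P1, P2 and P3 then carried 21, 9 and 14.

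Sharing differed by length in number. Of the 18 deletions of 6 bp, 7 were found in all 6 fish and 1 in a single fish, whereas of the 22 deletions of 5 bp, 3 were found in all 6 fish and 7 in a single fish. Of the 16 deletions of 3 bp, 5 were in all fish and 2 in a single fish, and for the 16 of 4 bp these numbers were 4 and 3. These counts are given as a description, with no test.

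Deletions found in a single fish were rare. R1, R2 and R3 had 4, 1 and 1 of these, and P1, P2 and P3 had 4, 0 and 3. The most abundant in R1, 528 to 532, was present in 16 libraries with a mean of 0.0124%. The one of P3, 546 to 550, was present in 3 libraries and averaged 0.0288%, of which 0.613% in a single library set nearly all. Those of R2 (551 to 555), R3 (527 to 529) and P1 (528 to 530) were each present in 1 library only. All 13 also had reads under the limit of 10 in at least 1 other fish.

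Within a fish a deletion was found on average in 38.8%, 36.2% and 46.2% of the libraries of R1, R2 and R3, against 42.6%, 37% and 33.9% in P1, P2 and P3. The means are given without a p, since the read limit for presence also chose the deletions. They were 40.4% ± 5.18 in Cas9 RNA fish, against 37.9% ± 4.42 in Cas9 protein fish (SD, n = 3 each). Without R3 the sign of their difference changed. The direction also turned with the limit for presence, to 28.2% ± 1.78 in Cas9 RNA fish, against 37.1% ± 6.30 in Cas9 protein fish, at 0.1% of the reads of a library. With libraries drawn down to 2500 reads, and presence set here and below at 3 drawn reads, the difference was -3.77 points. Both of these settings count unscarred reads, so they do not equalize the depth of scarred reads. Unscarred reads made up 74.3% to 92.5% of the reads in libraries of R2 and 2.04% to 59.5% in libraries of P3. Between 3 and 8 deletions per fish were present in all libraries of that fish, and between 7 and 13 in only 1 library. Over all fish the median deletion was found in 21.5 of the 130 libraries, 5 deletions in at least 100 libraries, and 9 in 1 library.

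The spread over libraries was set beside that of neighbouring length classes as a description, with no test, since it rests on the same count of 10 reads that chose the deletions. Relative to single deletions of 1 to 2 bp, those of 3 to 6 bp were found in 6.66 ± 4.83 percentage points more of the libraries of a fish (SD, n = 6 fish). The difference was 0.194 points in R1 and 12.6 points in R3. With presence set at 0.1% of the reads the mean difference was 8.90 points but -0.164 in R1, and with libraries drawn down to 2500 reads it was 8.37 points but -4.03 in R2. Here too the reads counted or drawn include the unscarred ones, which were most of the reads in R2. The median number of reads of a scar was between 186 and 680 by fish for 3 to 6 bp and between 91.5 and 420 for 1 to 2 bp, and its part in the difference was not tested. Against deletions of 7 to 12 bp the difference was 1.18 ± 2.84 points and positive in 4 of 6 fish.

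Across all scars, 611 had at least 10 summed reads in at least 3 fish and entered edgeR's quasi-likelihood test between the injections, 64 of the 72 deletions among these. At a Benjamini-Hochberg adjusted p under 0.05 the test called 0% of the 611 scars and 0 of the 64 deletions. At an unadjusted p under 0.05 there were 81 scars, 7 deletions of 3 to 6 bp among these, 5 higher in Cas9 RNA fish and 2 higher in Cas9 protein fish. limma on log2 mean shares called 0 scars, with 38 at an unadjusted p under 0.05, whereas DESeq2 called 47 of the 611 scars and 4 of the 64 deletions. DESeq2 gave no adjusted p for 217 of the scars, 21 of the deletions among these. It also scaled counts by its own size factors and not by scarred reads, so its calls are not like for like with those of edgeR.

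The 4 deletions called by DESeq2 were 527 to 530, 530 to 532, 532 to 537 and 538 to 542. These had low shares, and the highest mean in a fish was 0.763%, for 538 to 542 in R2. The median log2 difference was 1.45 for the 64 deletions and 0.68 for all 611 scars, and with TMM normalization it was 0.68 and -0.14, so that no direction is read from it.

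By mean share, 11 of the 64 deletions (17.2%) lay higher in all 3 Cas9 RNA fish than in any Cas9 protein fish, where 11.6% of all 611 scars did so. In the opposite direction there was 1 of the 64 (1.56%), namely 527 to 530, where 2.45% of all scars did so. The difference of these shares from the whole set was not tested, and nothing is read from it. Of the 11, only 542 to 544 averaged at least 1% of the scarred reads in every Cas9 RNA fish. Others were 537 to 542, through R1, and 536 to 541, which averaged 0.140%, 0.150% and 0.623% in R1, R2 and R3, against 0.0621%, 0.115% and 0.00166% in P1, P2 and P3. Without the highest library of each fish, 536 to 541 averaged 0.113%, 0.0592% and 0.425% in R1, R2 and R3. In P1, P2 and P3 it then averaged 0.0319%, 0.0421% and 0.00132%, so its order was kept. With the same change 537 to 542 averaged 2.56%, 0.0835% and 0.0452% in R1, R2 and R3. In P1 it then averaged 0.169%, above R2 and R3, so single libraries carried its order.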

How the data were processed

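Scar counts were analysed for 6 zebrafish, grouped by the injection given in the labels (3 Cas9 RNA, 3 Cas9 protein). The values deposited by the authors were raw counts of reads per scar and barcode, not normalized. Per the submitters' processing notes, reads were mapped with BWA 0.7.16a. Of 372 barcodes, 130 had at least 1000 reads and were used as libraries (2802 to 3198706 reads each). Unscarred reads were left out of the shares. Shares were averaged over the libraries of a fish, and fish were compared by exact permutation tests, two-sided, with Benjamini-Hochberg adjustment over 10 comparisons between injections and 3 paired comparisons between length classes. Of these 3, both on libraries per scar are given without a p, because they use the counts that chose the scars. Between injections, libraries per deletion and the number of deletions are given without a p for the same reason. Summed counts of all scars with at least 10 reads in 3 fish were tested with edgeR 4.0.16 (glmQLFit and glmQLFTest, with scarred reads as library size). DESeq2 1.42.0 and limma 3.58.1 (pseudocount 0.001%) were alternatives. Scripts used R 4.3.3, Python 3.11.15 and SciPy 1.17.1 and were tested on simulated data.

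Scars named by rule were the 3 deletions of each length with the highest mean share, the most abundant of each fish and, per fish, the most abundant one found there only. Other deletions were named after their values were seen. The deletions and the comparison classes were chosen with earlier results of these data known. Nothing in the labels tells whether fish came from separate clutches, so p-values measure the spread between these fish. Body structures were not used here.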

Additional observations from a re-analysis of the deposited data

Results flagged for a closer look

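The barcodes with fewer than 1000 reads entered none of the main comparisons, and they too held reads of the deletions of 3 to 6 bp. In these barcodes the deletions held 31.3% of the scarred reads of R1 (26 of 83 reads, 95% Wilson interval 22.4% to 41.9%), 31.2% of R2 (34 of 109) and 28.6% of R3 (223 of 781). In Cas9 protein fish they held 24.6% of P1 (155 of 630), 21.8% of P2 (97 of 445) and 23.6% of P3 (88 of 373). They were listed because they exceed the limit that a count of 0 allows, which any clear count does, so the shares are a description. That limit was 3.61%, 2.75% and 0.384% in R1, R2 and R3, and 0.476%, 0.674% and 0.804% in P1, P2 and P3. The libraries of the same fish, with at least 1000 reads, spanned each of these shares.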

How the results depend on the processing

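Of 64 recomputed values other than those without a fish, 54 kept their direction and their side of the threshold. Much of this count was fixed beforehand, so it does not measure robustness. No exact p between injections can fall under 0.10, so none could cross 0.05. A replicate block leaves a mean difference as it was, and pooling all barcodes gave nearly the values of pooled libraries. The largest deletion's share differed by 3.28 points with reads pooled per fish and by 3.28 with all barcodes, opposite in sign to the mean over libraries. The number of deletions per fish differed by -1 between injections without 1-bp variants of more abundant deletions. Such a variant lies within 1 bp in start and length of a single deletion with at least 10 times its reads in the fish. Without these, R1, R2 and R3 held 27, 22 and 26 deletions, down from 56, 37 and 43. P1, P2 and P3 held 30, 24 and 24, down from 59, 33 and 40. Whether these variants are sequencing errors was not tested. Libraries per deletion differed by -8.84 points between injections with presence set at 0.1% of the reads and by -3.77 with libraries drawn down to 2500 reads. Against 1 to 2 bp that difference was 8.90 and 8.37 points under the same changes and 3.61 with medians over scars. Against 7 to 12 bp it was -2.20 with medians. DESeq2 called 4 of the 64 deletions and 47 of all 611 scars, and nothing is read from these counts. Of its adjusted p-values, 217 (21 of the deletions) were not given. The cause was not tested. Medians over scars and the runs without the most abundant deletion of 6 bp or of 3 bp were chosen after seeing the data.

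Leaving out each fish in turn gave -0.339 to 7.20 points for the share of scarred reads (negative without R3 or P2), -3.55 to 1.23 for 4 bp (positive without P3) and -9.72 to 0.576 for 6 bp (positive without P1). It gave -0.783 to 0.201 for the mean position (positive without R3, P1 or P2), -4.17 to 8.83 for the number of deletions (negative without R1, P2 or P3) and -0.357 to 4.93 for libraries per deletion (negative without R3). The paired differences were 52.5 to 59.6 points for the in-frame share against 7 to 12 bp and 5.47 to 7.96 for libraries against 1 to 2 bp; with 5 fish the exact p for the in-frame share cannot fall under 0.0625. Same-numbered fish had correlations of 0.06, 0.06 and -0.22, and differently numbered fish had between -0.25 and 0.18. These few values, with no test, cannot tell whether the numbers pair the fish. With the fish number as a replicate block the 3 bp difference stayed at 10.4 points, since the block does not alter a mean difference. Its exact sign-flip p = 0.25 is the smallest that 3 pairs allow, so these exact tests could change no call. With the block edgeR called 0 deletions.

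The number of fish, 3 per injection, limits every comparison, and libraries of a fish add no replicates. Depth limits which rare deletions are found in a library.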
